A study of Arabidopsis thaliana with 6 samples.

Results

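The 41 genes described here are nuclear genes of photosynthesis, chosen by locus name from a table of 33602 Arabidopsis thaliana loci, and all 41 were in the table and were tested. They comprise 4 LHCA and 13 LHCB genes for the light-harvesting antennae of photosystems I and II, 12 PSA and 8 PSB genes for subunits of the photosystems, and 4 RBCS genes for the small subunit of Rubisco. Their levels were measured as poly(A) RNA of F1 endosperm nuclei, taken 4 days after pollination and isolated by INTACT, which captures nuclei through a tagged envelope protein. In the cross written Cm x L, the mother was TEmob, a Columbia-0 line with the INTACT tag, and the father was the Landsberg erecta accession (Ler). In L x Cm the mother was the Ler pistillata mutant pi-1, whose flowers lack stamens, and TEmob was the father. The history of TEmob began with germination in the presence of α-amanitin, which blocks RNA polymerase, and of 40 µM zebularine, an inhibitor of DNA methylation, at 37 °C, after which a haploid offspring of a cross to a centromere histone mutant was made diploid with colchicine. Every library therefore carries the TEmob genome and the tag from 1 parent, and TEmob is a single line. There were 3 libraries of each cross. Since no label ties a library to its own plants or pool, p-values rest on the spread among these 6 libraries, and that spread may be technical. The test, limma, moderates the spread of each gene towards that of loci of similar level, so a printed SE is a moderated one. Below, 3 values for a gene are those of replicates 1, 2 and 3 in that order, with the TEmob mother first and the Ler mother second.

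A photosystem is a complex of proteins and pigments in the thylakoid membrane of the chloroplast that turns light into electron flow. The chloroplast genome encodes the reaction centre proteins and the large subunit of Rubisco, whereas the antenna proteins, many peripheral subunits and the small subunit of Rubisco are encoded in the nucleus and imported. Developing Arabidopsis seeds pass through a green stage, in which chloroplasts occur in the embryo and also in endosperm and seed coat. All 133 chloroplast loci of the table were listed at 0 in the 6 libraries, so the partner subunits encoded in the chloroplast could not be compared.

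Some of the genes are near-identical copies, which bears on how their reads could be assigned. The coding sequences of the neighbouring genes LHCB1.1, LHCB1.2 and LHCB1.3 on chromosome 1 are 95.6% to 96.4% identical in the RefSeq annotation of TAIR10.1, and 47 of their 804 coding bases vary. Coding bases 25 to 84, where the 3 copies differ most, are shown with the 8 variable positions in capitals, because reads over such positions can tell the copies apart.
LHCB1.1: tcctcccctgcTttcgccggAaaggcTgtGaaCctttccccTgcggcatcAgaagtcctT
LHCB1.2: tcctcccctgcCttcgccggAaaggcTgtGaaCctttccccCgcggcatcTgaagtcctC
LHCB1.3: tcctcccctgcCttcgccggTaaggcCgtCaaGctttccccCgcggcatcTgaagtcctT
Of all 50-base stretches of the LHCB1.1 transcript, 20.5% also occur in a transcript of another locus, against 10.6% for LHCB1.2 and 17.0% for LHCB1.3. The shares were 22.7% for LHCB2.1 and 28.2% for LHCB2.2, and 1.48% for RBCS1A against 14.0% to 21.4% for the other RBCS genes. For LHCA2 the share was 8.76%, all with the locus AT5G28450. None of the PSA and PSB transcripts held such a stretch. How the authors counted reads that fit several loci is not given in the sources used here, so values of LHCA2 and of the LHCB1, LHCB2 and RBCS copies are uncertain to that extent.

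Promoters were compared as the 250 bases before the annotated start of each gene, on either strand, in the RefSeq annotation of TAIR10.1. The letters CCAATC, associated with target genes of the GLK transcription factors, were found in 9 of the 17 antenna promoters and in 0 of the 24 promoters of photosystem and Rubisco subunits. They occur in 10.2% of 27437 promoters of protein-coding genes. Windows of 60 bases around the match nearest to the start are shown with the match (CCAATC or its reverse complement GATTGG) in capitals, since all the matches lay in antenna genes.
LHCA1, chr3:20341265-20341324, minus strand: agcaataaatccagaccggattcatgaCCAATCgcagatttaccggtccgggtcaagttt
LHCA3, chr1:22699653-22699712, plus strand: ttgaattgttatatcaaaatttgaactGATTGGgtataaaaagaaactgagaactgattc
LHCA4, chr3:17495049-17495108, minus strand: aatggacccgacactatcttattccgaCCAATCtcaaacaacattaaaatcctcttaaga
LHCB1.3, chr1:10477767-10477826, plus strand: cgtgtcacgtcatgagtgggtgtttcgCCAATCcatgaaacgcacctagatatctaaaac
LHCB1.5, chr2:14523625-14523684, minus strand: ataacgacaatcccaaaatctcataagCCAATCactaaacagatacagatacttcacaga
LHCB2.1, chr2:1824507-1824566, minus strand: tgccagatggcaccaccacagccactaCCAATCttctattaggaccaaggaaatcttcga
LHCB2.2, chr2:1800493-1800552, minus strand: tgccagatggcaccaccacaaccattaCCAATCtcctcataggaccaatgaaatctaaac
LHCB4.1, chr5:208804-208863, plus strand: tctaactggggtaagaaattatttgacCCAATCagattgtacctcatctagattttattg
LHCB4.2, chr3:2717454-2717513, plus strand: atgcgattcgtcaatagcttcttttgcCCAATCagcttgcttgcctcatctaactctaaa
The G-box CACGTG was found in 7 of the 41 promoters (6.49% of all promoters) and the I-box GATAAG in 9 (12.3% of all). TATAAA was found in 19 (47.4% of all). The annotated start is the outermost for each gene, so a window may lie upstream of the start used in endosperm, and a match is a description of letters only. Whole promoters are shown for LHCB1.1, which had the largest difference between the crosses, for its neighbour LHCB1.3, the most abundant antenna gene, and for RBCS1A, the most abundant gene of the set, with the 4 motifs in capitals.
LHCB1.1, chr1:10475970-10476219, minus strand: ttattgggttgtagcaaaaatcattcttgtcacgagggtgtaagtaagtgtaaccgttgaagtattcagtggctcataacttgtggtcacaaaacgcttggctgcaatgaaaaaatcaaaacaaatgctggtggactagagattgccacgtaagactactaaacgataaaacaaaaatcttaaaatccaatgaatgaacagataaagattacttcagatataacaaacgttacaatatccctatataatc
LHCB1.3, chr1:10477635-10477884, plus strand: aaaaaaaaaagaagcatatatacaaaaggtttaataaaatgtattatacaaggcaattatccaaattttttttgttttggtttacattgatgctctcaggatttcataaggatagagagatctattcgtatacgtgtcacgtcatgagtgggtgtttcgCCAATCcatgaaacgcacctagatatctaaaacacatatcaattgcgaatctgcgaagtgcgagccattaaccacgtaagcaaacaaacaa
RBCS1A, chr1:25049668-25049917, minus strand: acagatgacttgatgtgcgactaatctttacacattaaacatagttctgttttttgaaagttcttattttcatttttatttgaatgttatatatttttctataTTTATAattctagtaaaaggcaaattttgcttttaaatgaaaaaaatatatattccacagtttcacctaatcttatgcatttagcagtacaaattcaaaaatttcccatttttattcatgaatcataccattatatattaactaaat

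Photosynthesis genes were among the more abundant transcripts of these nuclei. Levels are given as RPKM, reads scaled by gene length and by the library total, so they can be compared between genes. Averaged over the 6 libraries, 3 of the 41 genes were among the 100 highest of the 33602 loci and 27 among the 1000 highest. RBCS1A, the main small subunit gene of leaves, ranked 14th, with 1339, 1278 and 1538 RPKM against 849, 802 and 916 RPKM. LHCB1.3, which encodes a protein of the main antenna trimer of photosystem II, ranked 30th, with 831, 979 and 1065 RPKM against 631, 492 and 572 RPKM. The lowest mean was that of LHCB4.3, a variant of a minor photosystem II antenna protein, at 25.2 RPKM. Each gene had at least about 446 reads in every library, a read number that limits counting error. The sum over the 41 genes was 8678, 9157 and 12500 RPKM against 6832, 5849 and 6520 RPKM. The order of levels was much alike everywhere: over the 41 genes, Spearman's rho was 0.940 to 0.990 between libraries of the same cross and 0.925 to 0.952 between libraries of different crosses, as a description, since the libraries share gene lengths and annotation.

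**Figure D1:**
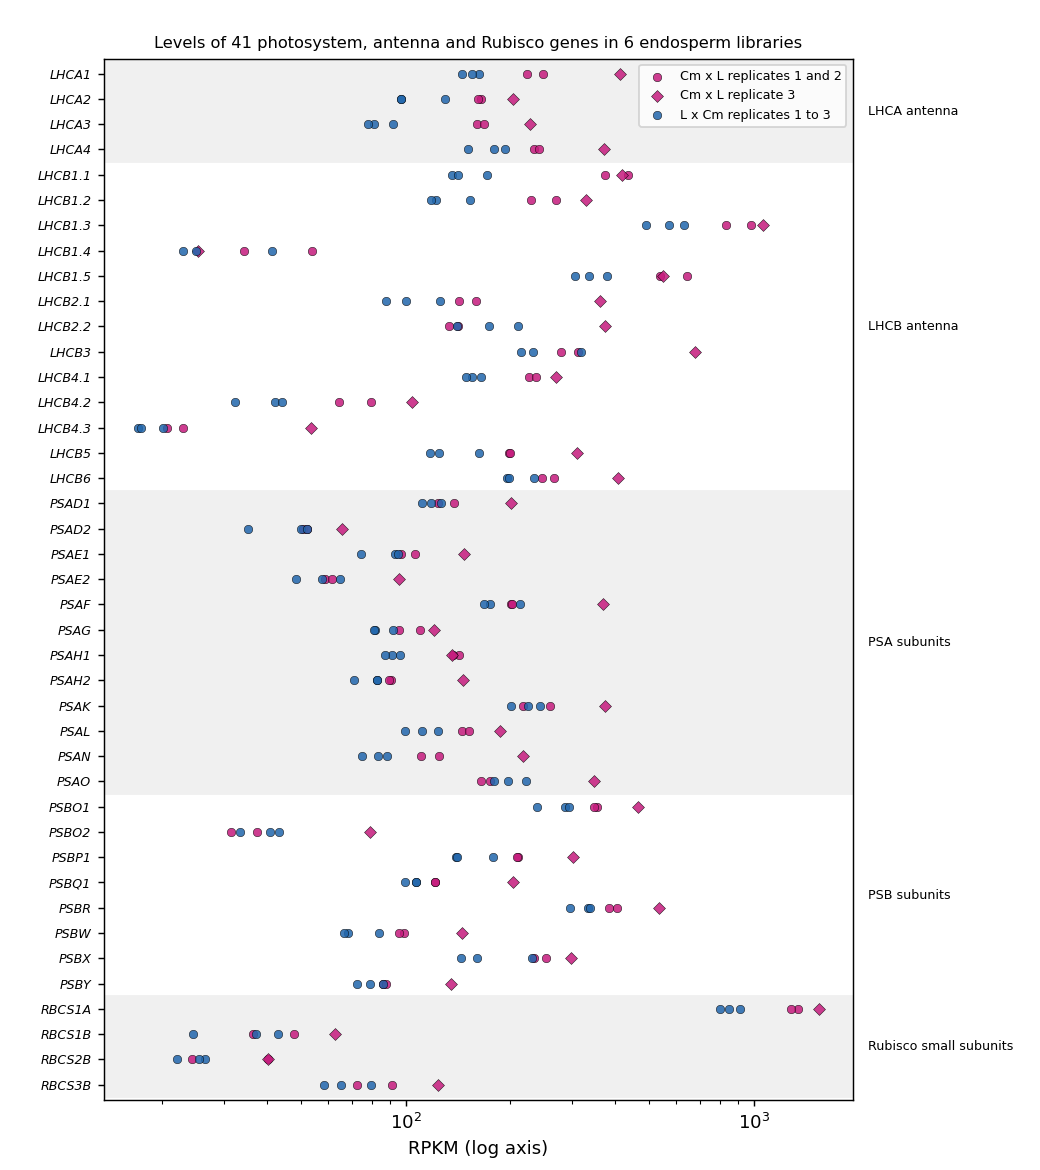
RPKM on a log axis of each of the 41 genes in the 6 libraries, grouped by role, with circles for Cm x L replicates 1 and 2 and for L x Cm replicates 1 to 3 and diamonds for Cm x L replicate 3. RBCS1A and LHCB1.3 lie furthest to the right, and the diamond is the highest value for 36 of the 41 genes.

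Libraries held about 21212700 to 29234400 reads, recovered from the spacing of low values. On the log2 scale, r over tested loci was 0.903 to 0.977 within a cross. Cm x L replicate 3 stood apart in this gene set. It was the highest of the 6 libraries for 36 of the 41 genes, where it was highest for 29.4% of all loci averaging at least 20 RPKM and 17.8% of all tested loci. Of 10 seed coat markers, summed levels were 182, 263 and 512 RPKM against 327, 491 and 601 RPKM, with none at 0. The sum in Cm x L replicate 3 thus lay above those of replicates 1 and 2 and within the range of L x Cm. BAN was its largest part, with 67.4, 97.7 and 264 RPKM in Cm x L. MUM4 (22.48, 23.36 and 18.55 RPKM) and GL2 (21.75, 35.6 and 26.46 RPKM) did not follow the sum there. For 12 embryo markers, the sums were 377, 316 and 165 RPKM against 183, 191 and 176 RPKM. WOX8, LEC1 and LEC2 made up most of the sums in Cm x L, whereas 8 of the 12 markers had fitted differences below 0. WOX2, CUC3 and WUS were at 0 in Cm x L replicate 3, and at only 0.111 to 0.948 RPKM in replicates 1 and 2. PLT2 was at 0 in Cm x L replicate 1. LEC1, which endosperm also expresses, and LEC2 were called higher and 6 of the 12 lower. For 7 pollen markers they were 130, 733 and 64.9 RPKM against 784, 3004 and 1151 RPKM, and for 10 endosperm markers 516, 520 and 529 RPKM against 589, 550 and 608 RPKM. The part of these tissues in the results was not tested. In these bulk libraries, fewer nuclei of a type and less RNA per nucleus cannot be told apart. Direction of the cross also sets which accession gave the maternal dose and how many reads match the Columbia reference exactly, and these cannot be told apart from it.

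All 41 genes had a higher fitted level in Cm x L than in L x Cm, and 10 passed the test while 0 were called lower. The test was limma on log2(RPKM + 1), with Benjamini-Hochberg adjustment over 26620 loci averaging at least 1 RPKM and a threshold of 0.05. The 10 calls comprised 9 antenna genes and PSAH1. Among all tested loci, 6.73% were called higher and 18.3% lower. All 41 genes had a mean of at least 20 RPKM, and of the 8503 loci at that level 14.1% were called higher and 6.70% lower. Below it, 3.28% were called higher. A fitted difference above 0 was found for 60.6% of loci at that level and 39.2% of all tested loci. The median difference of the 41 genes was 0.52, against 0.14 at that level and −0.22 over all tested loci. At an unadjusted p under 0.05, 19 of the genes were higher and 0 lower. At that p, 2106 of the 8503 loci averaging at least 20 RPKM were higher and 1031 lower. Over all 26620 tested loci, 3375 were higher and 7675 lower. For 28 of the 41 genes every Cm x L library lay above every L x Cm library, as for 29.6% of loci averaging at least 20 RPKM, where 12.5% had Cm x L below. Over all tested loci the shares were 15.7% above and 29.8% below. Quantile normalization moved the median of all tested loci by 0.26 and centring on loci of at least 20 RPKM moved it by −0.12. The fitted difference stayed above 0 for 41 and 40 of the genes, PSAO being at −0.003 after centring, and 8 and 7 genes were called higher. LHCA1 and LHCB5 lost the call under both scalings, and LHCB1.5 lost it after centring. At a mean of at least 20 RPKM, the 1198 higher and 570 lower calls as deposited became 731 (8.60%) and 562 (6.61%) after quantile normalization and 831 (9.77%) and 830 (9.76%) after centring. Over all tested loci the shares were 7.78% and 6.53% after quantile normalization and 4.60% and 21.7% after centring. The count of 10 was 4 without Cm x L replicate 1, 5 without replicate 2, 9 without replicate 3, 5 without L x Cm replicate 1, 2 without replicate 2 and 8 without replicate 3. In the same fits, the 1198 higher calls at a mean of at least 20 RPKM became 285, 647, 1426, 531, 389 and 1041.

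**Figure D2:**
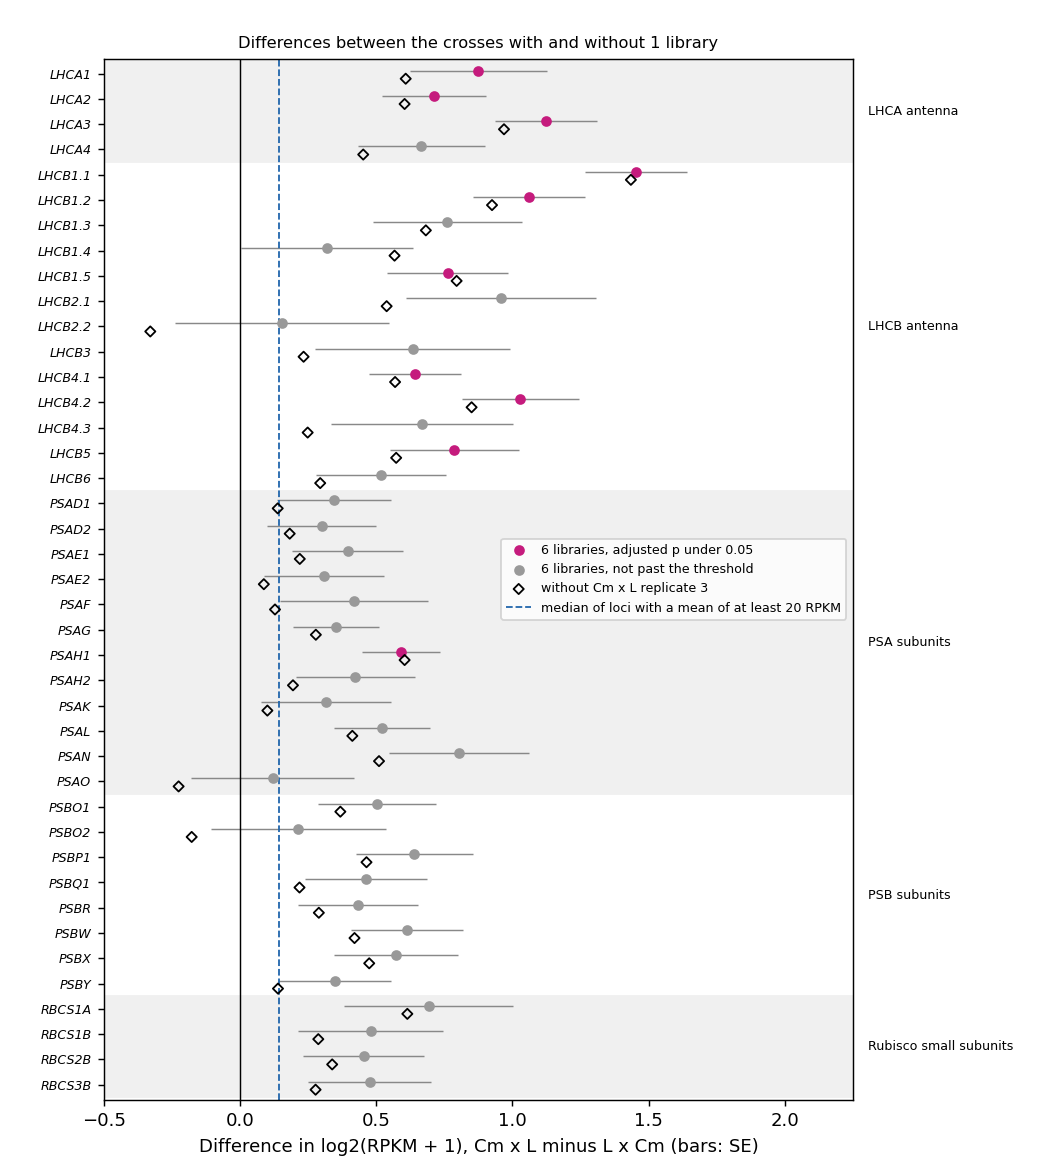
Difference in log2(RPKM + 1), Cm x L minus L x Cm, for each of the 41 genes from 6 libraries (circles, with bars of 1 SE) and without Cm x L replicate 3 (diamonds). All circles lie right of 0, and the diamonds of LHCB2.2, PSAO and PSBO2 lie left of it.

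The antenna of photosystem I consists of the proteins LHCA1 to LHCA4, which bind chlorophyll beside the photosystem I core. Of these 4 genes, 3 were called higher, and for all 4 every Cm x L library lay above every L x Cm library. Of loci averaging at least 20 RPKM, 14.1% were called higher and 29.6% were without overlap in that direction. LHCA3 (AT1G61520) had 161, 167 and 227 RPKM against 91.7, 81.0 and 77.9 RPKM. Its log2 difference was 1.12 (SE 0.19, limma adjusted p = 0.0090), and the call held whichever of the 6 libraries was left out. LHCA1 (AT3G54890) had 224, 248 and 412 RPKM against 162, 146 and 155 RPKM, so that replicate 3 was 1.75 times the mean of replicates 1 and 2. Its log2 difference was 0.88 (SE 0.25, limma adjusted p = 0.040), and it was called in 1 of the 6 fits. LHCA2 (AT3G61470) had 164, 162 and 204 RPKM against 130, 96.8 and 97.1 RPKM (0.71, SE 0.19, limma adjusted p = 0.033) and was called in 2 of the 6. LHCA4 (AT3G47470) did not pass, with 233, 242 and 371 RPKM against 192, 151 and 179.5 RPKM (0.67, SE 0.23, limma adjusted p = 0.069).

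The LHCB1, LHCB2 and LHCB3 (AT5G54270) proteins form the trimers of the main antenna of photosystem II. Of their 8 genes in the set, LHCB1.1 (AT1G29920), LHCB1.2 (AT1G29910) and LHCB1.5 (AT2G34420) were called higher. LHCB1.1 had 374, 434 and 419 RPKM against 136, 141 and 171 RPKM. This was the largest fitted difference of the 41 genes, with a log2 value of 1.45 (SE 0.19, limma adjusted p = 0.0060), or 2.74-fold between the means. The call held whichever library was left out, and replicate 3 was 1.04 times the mean of replicates 1 and 2. LHCB1.2 had 229, 270.0 and 330.0 RPKM against 153, 122 and 119 RPKM (1.06, SE 0.21, limma adjusted p = 0.013) and held in 5 of the 6 fits. LHCB1.5 had 538, 644 and 549.7 RPKM against 336, 306 and 378 RPKM (0.76, SE 0.22, limma adjusted p = 0.041) and held in 2. The groups did not overlap for any of these 3 genes. LHCB1.3 (AT1G29930), the most abundant copy, differed by the same 0.76 with a larger moderated SE of 0.27. It did not pass (limma adjusted p = 0.073, and 0.039 to 0.24 over all fits). LHCB1.4 (AT2G34430), the least abundant copy, had 34.3, 54.0 and 25.3 RPKM against 41.3, 25.0 and 23.0 RPKM, which overlapped. The remaining trimer genes of the set had their highest value in Cm x L replicate 3. LHCB2.1 (AT2G05100) had 142, 159 and 362 RPKM against 125, 99.98 and 88.0 RPKM (0.96, limma adjusted p = 0.076). LHCB2.2 (AT2G05070) had 133, 141 and 375 RPKM against 211, 173 and 140.4 RPKM (0.15, limma adjusted p = 0.79). LHCB3 had 279, 313 and 679.7 RPKM against 319.8, 214 and 232 RPKM (0.63, limma adjusted p = 0.22). Without replicate 3 the value of LHCB2.2 turned to −0.33 (limma adjusted p = 0.25).

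The minor antenna proteins of photosystem II, LHCB4, LHCB5 (AT4G10340) and LHCB6 (AT1G15820), sit singly between the trimers and the core. LHCB4.1 (AT5G01530) had 227, 237 and 270.0 RPKM against 155, 149 and 164 RPKM (log2 difference 0.64, SE 0.17, limma adjusted p = 0.030). LHCB4.2 (AT3G08940) had 64.2, 79.5 and 104 RPKM against 42.1, 32.4 and 44.1 RPKM (1.03, SE 0.22, limma adjusted p = 0.016). Their calls held in 2 and 5 of the 6 fits without 1 library. LHCB5 had 198, 199.9 and 310.5 RPKM against 162, 118 and 124 RPKM (0.79, SE 0.24, limma adjusted p = 0.045), and its call held in none of the 6. LHCB6 and LHCB4.3 (AT2G40100) did not pass. LHCB6 had 246, 266 and 408 RPKM against 234, 196 and 198 RPKM (0.52, limma adjusted p = 0.14). LHCB4.3 had 20.6, 22.9 and 53.3 RPKM against 20.1, 17.0 and 17.3 RPKM (0.67, limma adjusted p = 0.17), so that replicate 3 was 2.45 times the mean of replicates 1 and 2.

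Of the 12 genes for photosystem I subunits, PSAH1 (AT3G16140) was called higher, and the list median of 0.37 was lower than the 0.79 of LHCA and 0.76 of LHCB genes. PSAH1, whose product takes part in docking the mobile antenna, had 143, 137 and 136 RPKM against 91.6, 87.0 and 96.3 RPKM (0.59, SE 0.14, limma adjusted p = 0.024). The replicates were close in both crosses, and the call held in 2 of the 6 fits without 1 library. Its copy PSAH2 (AT1G52230) had 91.0, 89.4 and 146 RPKM against 82.7, 71.1 and 82.9 RPKM (limma adjusted p = 0.18). PSAN (AT5G64040), on the lumen side where plastocyanin docks, had 124, 111 and 217 RPKM against 88.2, 74.9 and 83.5 RPKM (0.80, limma adjusted p = 0.054). PSAL (AT4G12800), which neighbours PSAH in the complex, had 145, 152 and 187 RPKM against 124, 99.5 and 112 RPKM (0.52, limma adjusted p = 0.062). PSAK (AT1G30380), which binds antenna at the edge of the core, was the most abundant on average, with 260.2, 218 and 373 RPKM against 244, 200.5 and 225 RPKM (0.31, SE 0.24, limma adjusted p = 0.35). PSAO (AT1G08380) had the smallest difference of the 41 genes, with 175, 165 and 348 RPKM against 221, 179.6 and 197 RPKM (0.12, limma adjusted p = 0.79). Without replicate 3 it turned to −0.23 (limma adjusted p = 0.35). The other 6 genes, PSAD1 (AT4G02770), PSAD2 (AT1G03130), PSAE1 (AT4G28750) and PSAE2 (AT2G20260) of the side where ferredoxin is reduced, with PSAF (AT1G31330) and PSAG (AT1G55670), had differences of 0.30 to 0.42 and did not pass.

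Of the 8 genes for photosystem II subunits, limma called 0, and 4 had an unadjusted p under 0.05, all higher in Cm x L. At a mean of at least 20 RPKM, 2106 of 8503 loci were higher at that p. In 7 of the 8 genes every Cm x L library lay above every L x Cm library, as for 29.6% of loci at that level. PSBR (AT1G79040), a subunit of the oxygen-evolving side, was the most abundant, with 404, 385 and 533 RPKM against 334, 296 and 339.5 RPKM (0.43, SE 0.22, limma adjusted p = 0.18). PSBO1 (AT5G66570), which stabilizes the manganese cluster, had 355, 347 and 464 RPKM against 287, 238 and 294 RPKM (0.50, limma adjusted p = 0.12). PSBP1 (AT1G06680), another oxygen-evolving subunit, had 210.5, 209 and 303 RPKM against 139.6, 140.5 and 179 RPKM (0.64, limma adjusted p = 0.062). PSBW (AT2G30570), a small membrane subunit, had 98.7, 95.9 and 146 RPKM against 83.6, 68.3 and 66.7 RPKM (0.61, limma adjusted p = 0.061). PSBO2 (AT3G50820), the minor copy of PSBO1, was the exception, with 31.4, 37.5 and 78.8 RPKM against 40.9, 33.5 and 43.2 RPKM. Its difference of 0.21 turned to −0.18 without Cm x L replicate 3 (limma adjusted p = 0.64 and 0.47). PSBQ1 (AT4G21280), PSBX (AT2G06520) and PSBY (AT1G67740) lay between 0.35 and 0.57.

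Of the 4 genes for the small subunit of Rubisco, the enzyme that fixes carbon dioxide, limma called 0 and none had an unadjusted p under 0.05. RBCS1A (AT1G67090) had every Cm x L library above every L x Cm library, at 1385 ± 136 against 856 ± 57.1 RPKM (mean ± SD, n = 3 per cross). Its log2 difference of 0.69 had an SE of 0.31 (limma adjusted p = 0.13). That SE is moderated towards loci of similar level and is not the spread of its own libraries alone. With no intensity trend, 1 of the 4 genes was called higher, RBCS1A (limma adjusted p = 0.039). The RBCS1B (AT5G38430), RBCS2B (AT5G38420) and RBCS3B (AT5G38410) genes, which lie together on chromosome 5, had differences of 0.45 to 0.48 with overlapping libraries. RBCS3B had 72.7, 91.5 and 124 RPKM against 79.4, 65.4 and 58.3 RPKM.

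The genes differed in how Cm x L replicate 3 compared with replicates 1 and 2. The ratio of replicate 3 to the mean of the other replicates ran from 0.573 for LHCB1.4 to 2.74 for LHCB2.2, with a median of 1.49. It was at least 2 for 6 genes, LHCB2.1, LHCB2.2, LHCB3, LHCB4.3, PSAO and PSBO2, none of which was called. It was below 1 for LHCB1.4, LHCB1.5 and PSAH1, the last 2 of which were called. The ratio of the mean of replicates 1 and 2 to the mean of L x Cm ran from 0.784 for LHCB2.2 to 2.71 for LHCB1.1, with a median of 1.31. Both ratios share the mean of replicates 1 and 2, so no relation between them is drawn. Without replicate 3, 9 of the 10 calls were kept, LHCB5 being the exception (limma adjusted p = 0.061), and the median difference of the 41 genes went from 0.52 to 0.37. Without that library 16.8% of loci averaging at least 20 RPKM were called higher and 10.0% lower, and 8.56% and 15.6% of all tested loci.

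**Figure D3:**
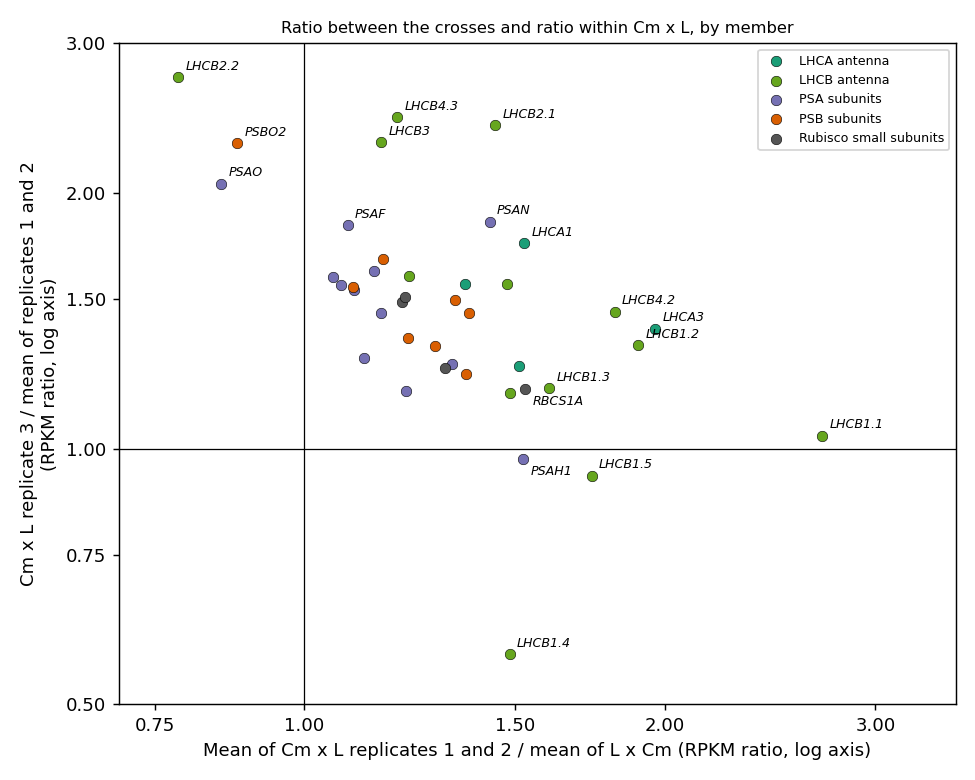
For each of the 41 genes, the ratio of Cm x L replicates 1 and 2 to L x Cm (horizontal, log axis) and the ratio of Cm x L replicate 3 to the mean of replicates 1 and 2 (vertical, log axis), coloured by role. LHCB1.1 lies furthest right at 2.71 with a vertical value of 1.04, and LHCB2.2 lies at the top left at 0.784 and 2.74.

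Several families hold more than 1 copy. In the LHCB1, LHCB2 and LHCB4 families the shares of some copies were apart between the crosses, and in the RBCS, PSAD and PSAE families they overlapped. The share of a copy in the summed RPKM of its family does not depend on the library total. Families are taken as the copies among the 41 genes, so LHCB2.3 is not in the LHCB2 pair. LHCB2.1 made up 51.6%, 53.0% and 49.2% of the LHCB2 pair with the TEmob mother and 37.3%, 36.6% and 38.5% with the Ler mother. The groups were far apart, with means of 51.3% ± 1.97 and 37.5% ± 0.992 (SD, n = 3 per cross), and Cm x L replicate 3 lay with its group although both copies were more than 2 times as high there. LHCB1.1 made up 18.7%, 18.2% and 17.5% of the 5 LHCB1 copies against 10.5%, 13.0% and 13.5%. LHCB1.3 held the largest share in both, at 42.4% ± 1.93 with the TEmob mother and 46.4% ± 1.97 with the Ler mother. LHCB4.2 held 22.8% ± 1.96 of the LHCB4 family against 18.4% ± 1.84, also without overlap. By contrast, RBCS1A held 88.6% ± 2.06 and 87.0% ± 2.21 of the RBCS sum, PSAD1 held 71.0% to 75.3% and 70.3% to 76.0% of the PSAD pair, and PSAE1 held 62.1% ± 1.42 and 60.7% ± 1.63 of the PSAE pair, all with overlap. PSBO1 held 91.9%, 90.3% and 85.5% of the PSBO pair against 87.5%, 87.7% and 87.2%. PSAH1 held 61.1%, 60.4% and 48.2% of the PSAH pair against 52.6%, 55.0% and 53.7%. In these pairs Cm x L replicate 3 lay on the other side of L x Cm from replicates 1 and 2. An exact permutation test of 3 against 3 libraries cannot go below p = 0.10, so no test of a share is given. The maternal allele was Columbia in Cm x L and Ler in L x Cm, so allele differences, read matching and direction of the cross cannot be told apart in these shares.

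**Figure D4:**
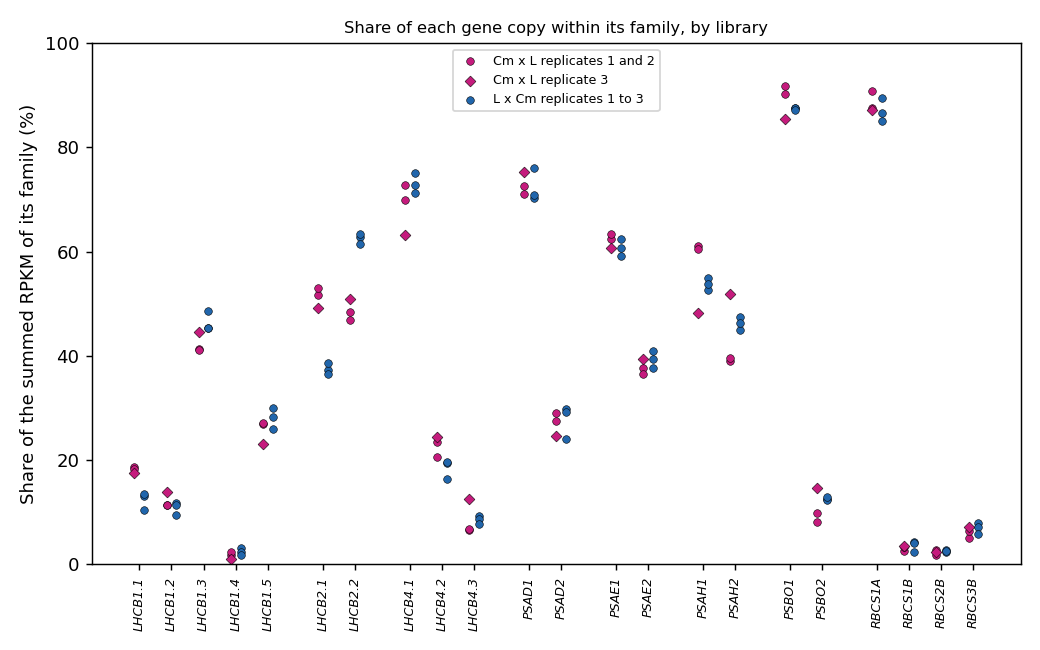
Share of each copy in the summed RPKM of its family (percent), by library, for the 8 families with several copies, with Cm x L in pink (replicate 3 as a diamond) and L x Cm in blue. The LHCB2 shares of the crosses are apart, with LHCB2.1 at 49.2% to 53.0% in Cm x L against 36.6% to 38.5%. Families hold only copies among the 41 genes, so LHCB2.3 is left out.

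Other genes of the pathway were read from the same fit. Over 83 genes in 5 lists, 18 were called higher in Cm x L and 6 lower, against 6.73% and 18.3% of all tested loci. Of the 83 genes, 59 averaged at least 20 RPKM, where 14.1% of loci were called higher and 6.70% lower. Below that level the shares were 3.28% and 23.7%. These counts were 10 and 1 after quantile normalization and 11 and 6 after centring. The count of 18 became 3 without Cm x L replicate 1, 11 without replicate 2, 3 without L x Cm replicate 1 and 3 without L x Cm replicate 2. The count of 6 became 1, 6, 3 and 2 in the same fits. Over all tested loci, the 1792 higher calls became 359, 876, 787 and 524 in these fits. The 4870 lower calls became 1243, 3951, 1856 and 1831. Cm x L replicate 3 was the highest library for 66 of the 83 genes, against 29.4% of loci averaging at least 20 RPKM. Without it, the median difference of the 83 genes went from 0.39 to 0.19, and that of loci at that level from 0.14 to 0.13. The 13 genes of electron carriers and ATP synthase all had fitted differences above 0, with a median of 0.51 (0.38 without that library). Of these, 4 were called higher. ATPC1 (AT4G04640), a subunit of the ATP synthase head, had 53.2, 50.4 and 83.2 RPKM against 36.4, 28.2 and 32.0 RPKM (0.90, limma adjusted p = 0.025). FD2 (AT1G60950), the main ferredoxin of leaves, had 182, 173 and 268 RPKM against 101, 110.1 and 127 RPKM (0.86, limma adjusted p = 0.026). PGRL1B (AT4G11960), of cyclic electron flow, had 12.3, 11.1 and 16.4 RPKM against 6.73, 6.98 and 8.64 RPKM (0.75, limma adjusted p = 0.048). Its call held in none of the 6 fits without 1 library and was lost after quantile normalization and centring (limma adjusted p = 0.057 and 0.071). Of 16 genes of the Calvin cycle, 6 were called higher and 1 lower, with a median of 0.61 (0.34 without Cm x L replicate 3). FBA1 (AT2G21330), a plastid aldolase, had 222, 228 and 234 RPKM against 114, 125 and 132 RPKM (0.88, limma adjusted p = 0.011), with close replicates and a call whichever library was left out. GAPA2 (AT1G12900), a subunit of chloroplast glyceraldehyde-phosphate dehydrogenase, had 89.9, 87.9 and 148 RPKM against 59.9, 53.6 and 44.8 RPKM (1.00, limma adjusted p = 0.022). CFBP1 (AT3G54050), the fructose bisphosphatase, had 36.9, 39.5 and 55.5 RPKM against 24.7, 16.6 and 25.0 RPKM (0.96, limma adjusted p = 0.023). The calls of ATPC1, FD2 and CFBP1 each held in 3 of the 6 fits without 1 library, and that of GAPA2 in 2. CP12-2 (AT3G62410), an inhibitor protein of the cycle, was the lower one, chosen after its values were seen, at 17.9 ± 0.623 against 27.6 ± 4.68 RPKM (−0.58, limma adjusted p = 0.048). Its call held in 1 of the 6 fits without 1 library and was lost after quantile normalization (limma adjusted p = 0.052), and the list had 0 lower calls with a pseudocount of 0.1, with no filter, at a mean of at least 5 RPKM and with no trend.

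Of 24 genes of chlorophyll synthesis, 4 were called higher and 0 lower, with 1 lower at an unadjusted p under 0.05 and a median of 0.33. Without Cm x L replicate 3 that median was 0.145. Of the 24, 18 averaged at least 20 RPKM, where 14.1% of all loci were called higher. The share of this list called higher was near that. PORB (AT4G27440), a protochlorophyllide reductase that needs light, had 56.1, 69.9 and 83.1 RPKM against 41.9, 26.0 and 19.7 RPKM (1.28, limma adjusted p = 0.018). CAO (AT1G44446), which makes chlorophyll b, the pigment found in antenna proteins, had 43.3, 43.4 and 84.1 RPKM against 28.2, 25.5 and 25.5 RPKM (1.01, limma adjusted p = 0.029). CHLM (AT4G25080), a methyltransferase of the magnesium branch, had 28.6, 38.5 and 41.9 RPKM against 20.6, 22 and 24.0 RPKM (0.67, limma adjusted p = 0.035). After quantile normalization CAO and CHLM missed the threshold (limma adjusted p = 0.055 and 0.072), and CHLM also missed it after centring (limma adjusted p = 0.061). Of 14 further photosystem genes, 3 were called higher and 1 lower. PSBP2 (AT2G30790), a low-level paralogue of PSBP1, had 9.72, 6.83 and 10.97 RPKM against 2.33, 1.94 and 4.19 RPKM (1.44, limma adjusted p = 0.020). STN8 (AT5G01920), a kinase of photosystem II core proteins, had 41.4, 42.8 and 42.5 RPKM against 21.9, 27.3 and 25.1 RPKM (0.75, limma adjusted p = 0.015). ELIP1 (AT3G22840), a stress protein related to the antenna, was lower, with 9.05, 15.6 and 10.4 RPKM against 16.9, 34.1 and 26.4 RPKM (−1.06, limma adjusted p = 0.037), and missed the threshold after quantile normalization (limma adjusted p = 0.056). Without 1 library, the call held in 3 of the 6 fits for PSBP2, 5 for STN8 and 2 for ELIP1.

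Of 16 regulators, 1 was called higher and 4 lower, with a median of −0.04. GLK1 (AT2G20570), a transcription factor that activates antenna and chlorophyll synthesis genes, had 0.225, 1.72 and 0.513 RPKM against 7.78, 4.27 and 8.91 RPKM (−2.17, SE 0.42, limma adjusted p = 0.013). Its related factor GLK2 (AT5G44190) had 5.99, 6.43 and 11.5 RPKM against 10.9, 5.25 and 6.04 RPKM and did not pass (0.10, limma adjusted p = 0.85). PIF3 (AT1G09530), which represses chlorophyll synthesis genes in the dark, had 0.661, 1.51 and 0.224 RPKM against 8.05, 5.23 and 5.63 RPKM (−2.06, limma adjusted p = 0.011). GNC (AT5G56860), a GATA factor that promotes greening, had 0.642 ± 0.459 against 3.92 ± 0.631 RPKM (−1.61, limma adjusted p = 0.018). The fourth lower gene, PIF1 (AT2G20180), and the higher gene, GUN1 (AT2G31400), were named after their values were seen, and the GUN1 call held in none of the 6 fits without 1 library. These 4 lower genes had means under 20 RPKM, where 23.7% of loci were called lower. After quantile normalization PIF3 was still called (limma adjusted p = 0.038), whereas GLK1, GNC and PIF1 were not (limma adjusted p = 0.079, 0.33 and 0.18). Without 1 library, the call held in all 6 fits for PIF3, in 4 for GLK1 and in 3 each for GNC and PIF1.

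**Figure D5:**
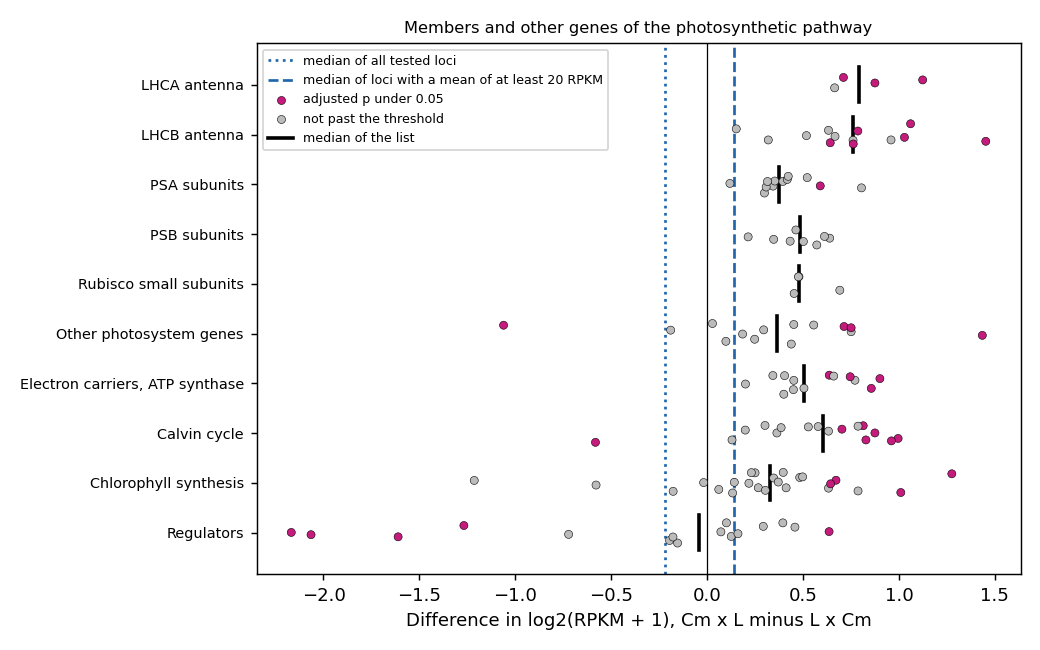
Difference in log2(RPKM + 1), Cm x L minus L x Cm, for the 41 genes and the 5 further lists, 1 point per gene, with called genes in pink, list medians as bars and the medians of all tested loci (−0.22) and of loci averaging at least 20 RPKM (0.14) as lines. The LHCA and LHCB medians are 0.79 and 0.76, and the regulators spread furthest to the left.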

How the data were processed

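The authors prepared poly(A) libraries from RNA of purified nuclei with NEBNext kits, per the labels' protocols. TopHat2 2.1.0 and the TAIR10 build are named in the submitters' processing notes. How reads were counted, and whether by strand, is not given in the sources used here. In all, the authors deposited 1 table of RPKM values for 33602 loci. Each of its 6 columns carries the parents in order and a replicate number, which gave its sample; the names omit TEmob, and 0 columns stayed unmapped. Values as log2(RPKM + 1) were tested 2-sided with limma 3.58.1 in R 4.3.3, with an intensity trend and cross direction as the only term, for loci averaging at least 1 RPKM. A fold on this scale understates the change of low genes. In data simulated for this comparison with 26620 loci, the fit called 18% of 100 genes changed by 1 and 75% of 100 changed by 2 on the log2 scale. Only these genes were changed, and all were drawn from loci averaging at least 20 RPKM. In the real fit 1792 loci were called higher and 4870 lower, which makes the adjustment of p-values less strict. The simulated shares are therefore not the power of the real test.

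Library totals were recovered as the step that makes low values of pseudogenes whole reads within 0.02, which 92.8% to 97.4% then were, a share that the choice of step favours. Such limits cover counting error only. Symbols of all 41 genes matched RefSeq (TAIR10.1), as did 78 of the 83 other pathway genes; sequences were built with Python 3.11.15. The members and lists were chosen with earlier results of these data known. All members are accounted for; full statistics are given for called members and the most abundant of each group, and, of each pathway list, for the 3 called genes with the largest differences, with GLK1 and GLK2. Alternatives changed the pseudocount (0.1), the filter (none, or 5 RPKM), the scaling, the trend and the replicate block, and left out each library in turn.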

Additional observations from a re-analysis of the deposited data

How the results depend on the processing

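The count of members called higher in Cm x L was 10 as reported and ran from 2 to 9 without 1 library. It stayed within 1.5 times under the other alternatives, and 0 were called lower in any fit. LHCA3 and LHCB1.1 kept the call in all 6 fits without 1 library. Of 287 member values under the other alternatives, 266 kept direction and call, 14 lost the call, 6 gained it and 1 turned, PSAO at −0.003 after centring. GLK2 turned to −0.021 after centring. Without 1 library, differences ran from −0.33 to 0.41 for LHCB2.2, from −0.23 to 0.31 for PSAO, from −0.18 to 0.47 for PSBO2 and from −0.16 to 0.38 for GLK2. The other 83 pathway genes had 18 higher and 6 lower calls. Higher calls were 10 with quantile normalization, 11 with centring and 10 with no trend, and ran from 3 to 14 without 1 library. Lower calls were 0 at a mean of at least 5 RPKM and 1 with quantile normalization, and ran from 1 to 6 without 1 library. The filter at 5 RPKM removes the 4 lower regulators from the test. ELIP1 and CP12-2, with means of 18.7 and 22.75 RPKM, stayed in it and lost the call. Over all tested loci, the 1792 higher calls ran from 359 to 2280 without 1 library, and the 4870 lower calls ran from 1243 to 5231 and were 1322 at a mean of at least 5 RPKM and 1739 with quantile normalization. Where it is not named, the cause was not tested. No label says whether equal replicate numbers pair the samples. Deviations of same-numbered libraries correlated at 0.081 to 0.204, and those of differently numbered libraries at −0.227 to 0.124. With a replicate block 14 members were called higher, all 10 among them. Higher calls also rose with the block from 1198 to 1338 at a mean of at least 20 RPKM. Over all tested loci they rose from 1792 to 1963. How far reads shared between near-identical copies affect the LHCB1, LHCB2, RBCS and LHCA2 values was not tested.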
